A study of Homo sapiens with 17 samples.

Results

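GRIPAP1 and 7 further genes of AMPA receptor trafficking, GRIP1, GRIP2, PICK1, NSF, CNIH2, CNIH3 and NPTX1, were followed in human neurons with and without UTX. They are 8 of the 60199 gene symbols in the RNA table. GRIPAP1 was picked because of its lower RNA in UTX-knockout neurons (the authors' deposited table gives it an adjusted p of 1.88e-10), so its difference from wild type is described and not tested as a finding. The others were picked by name for their part in AMPA receptor trafficking. The neurons were differentiated to day 40 from H9, an established human embryonic stem cell line, through embryoid bodies, hand-picked neural rosettes and neurospheres grown with retinoic acid and FGF2, and then with BDNF, GDNF, dibutyryl cyclic AMP and ascorbic acid. The 5 knockout RNA libraries have the genotype UTX-/-, 3 from line KO1 and 2 from line KO2, and the 3 wild-type (WT) libraries are from H9 with no knockout. The sources used here do not give whether each line is 1 clone, where UTX was edited or whether replicates are separate differentiations. The spread that the p-values rest on is thus that among these libraries, and it may be technical. For chromatin, each mark had 1 deposited peak list from KO cells and 1 from WT cells, and the control was normal rabbit IgG by its antibody label and input by its sample name.

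AMPA receptors carry most fast excitatory transmission in the brain, and their number at a synapse is set by assembly, delivery, anchoring, removal and recycling. GRIPAP1 (also called GRASP-1) binds the PDZ scaffolds GRIP1 and GRIP2 and acts with RAB4 on recycling endosomes that return receptors to the surface. GRIP1 and GRIP2 anchor the GluA2 and GluA3 subunits, PICK1 binds the same tails and takes part in their removal and intracellular retention, and the ATPase NSF disassembles SNARE complexes and also binds GluA2. CNIH2 and CNIH3 are cornichons, auxiliary subunits that aid export from the endoplasmic reticulum and slow channel closing, and NPTX1 is a secreted neuronal pentraxin that clusters AMPA receptors from outside the cell. UTX, encoded by KDM6A, is a demethylase of H3K27me3. That mark lies on Polycomb-repressed chromatin and H3K36me3 marks the bodies of transcribed genes.

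Start-site sequences are shown for GRIPAP1, whose RNA was lower in KO, and for the cornichon pair, because an internal start of CNIH3 lay under an H3K27me3 peak while its outer start and that of CNIH2 did not. They are RefSeq windows on GRCh38.p14 from 250 bases before to 50 after the start, 5′ to 3′, with CG dinucleotides in capitals. Of the 8 genes, 5 matched this table, with 8 windows. The GRIPAP1 window (chrX:49002215-49002514, minus strand) held 18 CG, a count reached by 44.5% of all 35116 windows, whose median was 14.
GRIPAP1: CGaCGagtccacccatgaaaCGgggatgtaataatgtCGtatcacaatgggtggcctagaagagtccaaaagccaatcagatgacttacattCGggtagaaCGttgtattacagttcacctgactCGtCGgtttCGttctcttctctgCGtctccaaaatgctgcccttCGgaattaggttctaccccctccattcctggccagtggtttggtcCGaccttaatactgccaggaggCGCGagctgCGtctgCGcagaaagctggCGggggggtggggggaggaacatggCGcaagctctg
The CNIH2 window (chr11:66277925-66278224, plus strand) held 44, reached by 4.19% of windows.
CNIH2: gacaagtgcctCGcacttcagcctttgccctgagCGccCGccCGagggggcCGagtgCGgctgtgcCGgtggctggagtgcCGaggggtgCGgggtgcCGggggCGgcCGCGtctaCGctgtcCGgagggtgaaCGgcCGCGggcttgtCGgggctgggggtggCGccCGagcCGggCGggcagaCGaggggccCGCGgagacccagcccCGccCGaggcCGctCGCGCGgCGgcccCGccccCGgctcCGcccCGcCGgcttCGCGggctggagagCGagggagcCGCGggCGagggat
The outer CNIH3 window (chr1:224434390-224434689, plus strand) held 30, reached by 22.4%, and the internal one (chr1:224616067-224616366, plus strand) held 36, reached by 12.7%.
CNIH3 outer start: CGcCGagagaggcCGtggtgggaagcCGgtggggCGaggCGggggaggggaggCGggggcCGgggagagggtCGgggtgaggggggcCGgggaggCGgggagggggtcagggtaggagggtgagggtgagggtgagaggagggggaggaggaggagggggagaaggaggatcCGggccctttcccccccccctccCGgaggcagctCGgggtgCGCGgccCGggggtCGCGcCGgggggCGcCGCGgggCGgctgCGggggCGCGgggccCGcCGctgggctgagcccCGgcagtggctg
CNIH3 internal start: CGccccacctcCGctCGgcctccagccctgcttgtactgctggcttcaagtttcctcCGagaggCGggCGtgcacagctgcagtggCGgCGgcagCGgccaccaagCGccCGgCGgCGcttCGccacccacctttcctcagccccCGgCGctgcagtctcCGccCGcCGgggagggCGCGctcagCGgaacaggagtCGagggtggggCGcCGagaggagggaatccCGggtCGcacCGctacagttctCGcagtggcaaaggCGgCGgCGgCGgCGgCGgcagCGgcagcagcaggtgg
The unmarked CNIH2 window thus held more CG than the marked CNIH3 window. A further CNIH3 window (chr1:224434599-224434898, plus strand), not printed and without a peak, held 33. Among the CNIH3 windows the marked one therefore held the most. Whether the CG count goes with the mark was not tested. CG was counted on 1 strand, which gives the same count as the other.

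RNA was measured as estimated counts per gene symbol, with 18.7 to 31.5 M counts per KO library and 17.4 to 27.8 M counts per WT library, and is given in CPM, counts scaled to a common library size with edgeR's TMM factors. KDM6A, the edited gene, had 25.9 to 40.8 CPM in KO and 35.2 to 36.03 CPM in WT, and where in the gene the reads lay is not in the table. All 15 neuronal markers were measured, and none was at 0 throughout. Their summed RNA was 1218 to 6333 CPM in KO and 5033 to 7474 CPM in WT. The 12 mesenchymal markers summed to 64070, 24770 and 37050 CPM in KO1 replicate 2, KO2 replicate 1 and KO2 replicate 2, against 1170 and 944.3 CPM in KO1 replicates 1 and 3 and 93.4 to 1650 CPM in WT. These 3 libraries, called high-collagen here, also held the 3 lowest neuronal sums (1218, 3763 and 2316 CPM). For the 8 genes, the neighbours of GRIPAP1 and the pathway lists, the KO against WT values are therefore also given without them, which leaves no KO2 library. Summed markers were 3535 to 6197 CPM in KO and 4327 to 4926 in WT for 9 progenitor genes, 77.05 to 481.7 and 256.3 to 463.6 for 6 astrocyte genes, 52.69 to 299.2 and 41.32 to 137.5 for 6 oligodendrocyte-lineage genes, 38.89 to 766.9 and 19.04 to 85.39 for 6 epithelial genes, and 5.433 to 112.4 and 1.581 to 4.114 for the 3 of 5 endothelial genes that were tested. KO1 replicate 1, which is kept when the 3 high-collagen libraries are left out, had 541.3 CPM of epithelial and 24.41 CPM of endothelial markers. Both lay above every WT library. KO1 replicate 3, also kept, had 38.89 CPM, inside the WT range, and 5.433 CPM, above it. In bulk RNA, fewer cells of a type and less RNA per cell cannot be told apart.

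GRIPAP1 RNA was lower in every KO library than in any WT library. It stood at 85.7, 76.6 and 96.2 CPM in KO1, 90.5 and 85.7 CPM in KO2, and 147.9, 164.5 and 166.2 CPM in WT. The KO values lay within 1.256-fold of each other. The lowest (KO1 replicate 2) and the highest (KO1 replicate 3) were also the KO libraries with the lowest and the highest neuronal marker sums, and the part of the neuronal markers in this spread was not tested. The mean was 86.9 ± 7.23 CPM in KO (SD, n = 5) and 159.5 ± 10.1 CPM in WT (SD, n = 3), so that KO held 54.5% of the WT mean. These values rest on 1364 to 3274 estimated counts per KO library and 3100 to 4797 per WT library. The log2 fold change was -0.88 (SE 0.105) with all libraries and -0.81 without the 3 high-collagen libraries, and its edgeR false discovery rate (FDR) over all genes was 0.222. The FDR missed 0.05, whereas GRIPAP1 passed in the authors' deposited table.

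Across all 18614 genes tested between KO and WT, edgeR's quasi-likelihood test called 0 genes (0%) at an FDR under 0.05, with 3337 genes (17.9%) at an unadjusted p under 0.05. DESeq2 called 1243 of the 20745 genes to which it gave an adjusted p. All 8 genes passed the filter on low counts, 0 were called by edgeR, and 2 (GRIPAP1 and PICK1) had an unadjusted p under 0.05. In the authors' deposited table GRIPAP1 alone of the 8 had an adjusted p under 0.05, and it was lower in KO, as were 1.24% of all genes tested, while 5.23% were called higher and 6.47% in either direction. KO and WT libraries did not overlap for 2 of the 8, against 12.5% of all genes (6.16% with KO below and 6.29% with KO above). As GRIPAP1 was chosen on this contrast, nothing is read from these shares. A log2 fold change below 0 was found for 5 of the 8 and for 50.6% of all genes, with medians of -0.52 and -0.01. GRIPAP1 is counted in these too, so nothing is read from them. Without the 3 high-collagen libraries GRIPAP1 stood at -0.81, GRIP2 at -0.52, NPTX1 at -0.43 and PICK1 at 0.34. GRIP1, NSF, CNIH2 and CNIH3 then lay between -0.04 and 0.07.

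**Figure D1:**
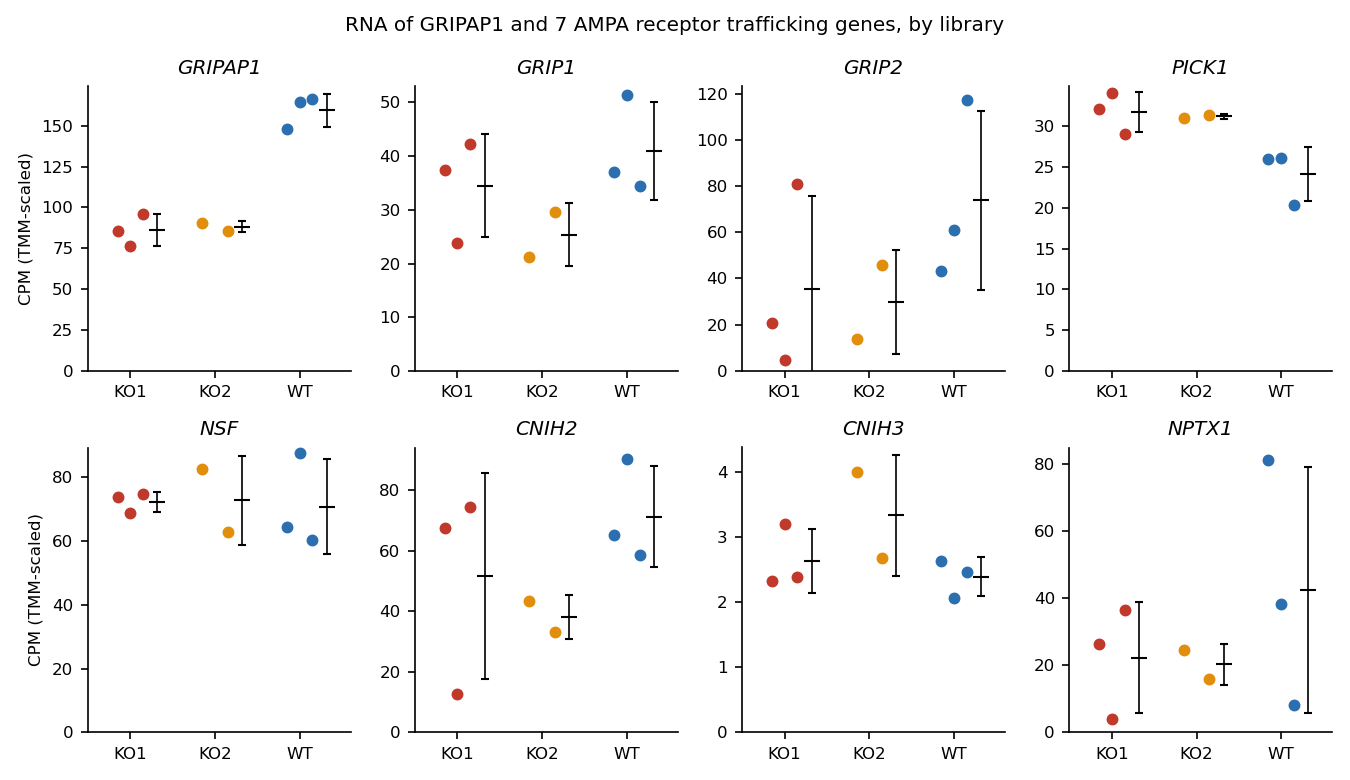
RNA level (CPM, linear axis from 0, a scale of its own in each panel) of GRIPAP1 and the 7 further genes in KO1, KO2 and WT. Each point is a library, and the black mark and bar beside each group are the mean and SD (n = 3, 2 and 3; bars are cut at 0). GRIPAP1 lies below and PICK1 above WT in all 5 KO libraries, while GRIP2, CNIH2 and NPTX1 spread widely within a group.

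The scaffolds GRIP1 and GRIP2, the partners of GRIPAP1, overlapped between genotypes. GRIP1 (chromosome 12, 66347431 to 67069338, GRCh38) had 37.3, 23.9 and 42.3 CPM in KO1, 21.2 and 29.6 CPM in KO2, and 37.0, 51.5 and 34.4 CPM in WT. The 3 high-collagen libraries were the 3 lowest, and KO1 replicates 1 and 3 lay inside the WT range. Its log2 fold change of -0.41 (SE 0.254, edgeR FDR 0.389) came to -0.04 without the 3 libraries and to -0.21 without WT replicate 2 alone. GRIP2 (chromosome 3, 14489107 to 14603017) had 20.9, 4.83 and 81.0 CPM in KO1, 13.8 and 45.8 CPM in KO2, and 43.3, 61.0 and 117.2 CPM in WT. It was the most variable of the 8 in KO, with a 16.8-fold spread, and 2 KO libraries lay inside the WT range. Its log2 fold change was -1.15 (SE 0.778, edgeR FDR 0.423) and -0.52 without the 3 libraries. It was -1.79 without KO1 replicate 3 alone and -0.65 without WT replicate 3 alone. GRIP2 RNA stood to GRIP1 RNA at ratios of 0.202 to 1.92 in KO and 1.17 to 3.40 in WT, so the ratio also overlapped.

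PICK1, which competes with GRIP for the same receptor tails, was the one member with more RNA in every KO library than in any WT library. PICK1 (chromosome 22, 38057255 to 38075701) had 32.1, 34.1 and 29.1 CPM in KO1, 31.0 and 31.5 CPM in KO2, and 26.0, 26.2 and 20.3 CPM in WT. The KO libraries lay within 1.17-fold of each other, also those high in collagen RNA, and the gap to WT was small. The mean was 31.6 ± 1.80 CPM in KO (SD, n = 5) and 24.2 ± 3.32 CPM in WT (SD, n = 3). The log2 fold change was 0.39 (SE 0.124) with an edgeR FDR of 0.243 (0.0823 as adjusted in the authors' deposited table). It was 0.34 without the 3 libraries (edgeR FDR 0.648). PICK1 thus did not pass the threshold.

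NSF, the fusion ATPase, averaged 72.5 ± 7.33 CPM in KO (SD, n = 5) and 70.7 ± 14.8 CPM in WT (SD, n = 3). NSF (chromosome 17, 46590669 to 46757464) had 73.6, 68.7 and 74.5 CPM in KO1, 82.6 and 62.8 CPM in KO2, and 64.3, 87.6 and 60.3 CPM in WT. All KO libraries lay inside the WT range. The log2 fold change was 0.03 (SE 0.151, edgeR FDR 0.913) and 0.07 without the 3 libraries, and with 1 library left out it ran from -0.074 without WT replicate 3 to 0.21 without WT replicate 2. NSFP1, a pseudogene copy of NSF, is listed at 0 in every library, and the sources used here do not say how reads shared by both were divided.

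The cornichons differed in level and in spread. CNIH2 (chromosome 11, 66278175 to 66284206) had 67.7, 12.7 and 74.6 CPM in KO1, 43.5 and 33.2 CPM in KO2, and 65.2, 90.3 and 58.6 CPM in WT. The 3 high-collagen libraries lay below WT, and KO1 replicates 1 and 3 lay inside the WT range. Its log2 fold change of -0.62 (SE 0.489, edgeR FDR 0.482) was -0.0033 without those libraries and -0.38 without KO1 replicate 2 alone. CNIH3 (chromosome 1, 224434640 to 224740554) was near the low end of what was measured, with 46 to 89.0 estimated counts per KO library and 46 to 65 per WT library. It had 2.32, 3.20 and 2.38 CPM in KO1, 3.99 and 2.68 CPM in KO2, and 2.63, 2.06 and 2.47 CPM in WT. The groups overlapped, and the log2 fold change was 0.29 (SE 0.263, edgeR FDR 0.541), with -0.01 without the 3 libraries, 0.17 without KO2 replicate 1 alone and 0.19 without WT replicate 2 alone. The ratio of CNIH3 to CNIH2 reads, which is not corrected for gene length, was 0.0319 to 0.252 in KO and 0.0228 to 0.0421 in WT, with the 3 highest ratios in the high-collagen libraries.

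NPTX1, the secreted pentraxin, varied as much among WT libraries as among KO libraries. NPTX1 (chromosome 17, 80466834 to 80476607) had 26.3, 4.10 and 36.6 CPM in KO1, 24.6 and 16 CPM in KO2, and 81.1, 38.2 and 8.21 CPM in WT. The spread was 8.93-fold in KO and 9.89-fold in WT, and 4 of the KO libraries lay inside the WT range. The log2 fold change was -0.98 (SE 0.757, edgeR FDR 0.473), but -0.11 without WT replicate 1 and -1.47 without WT replicate 3. It was -0.43 without the 3 high-collagen libraries.

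**Figure D2:**
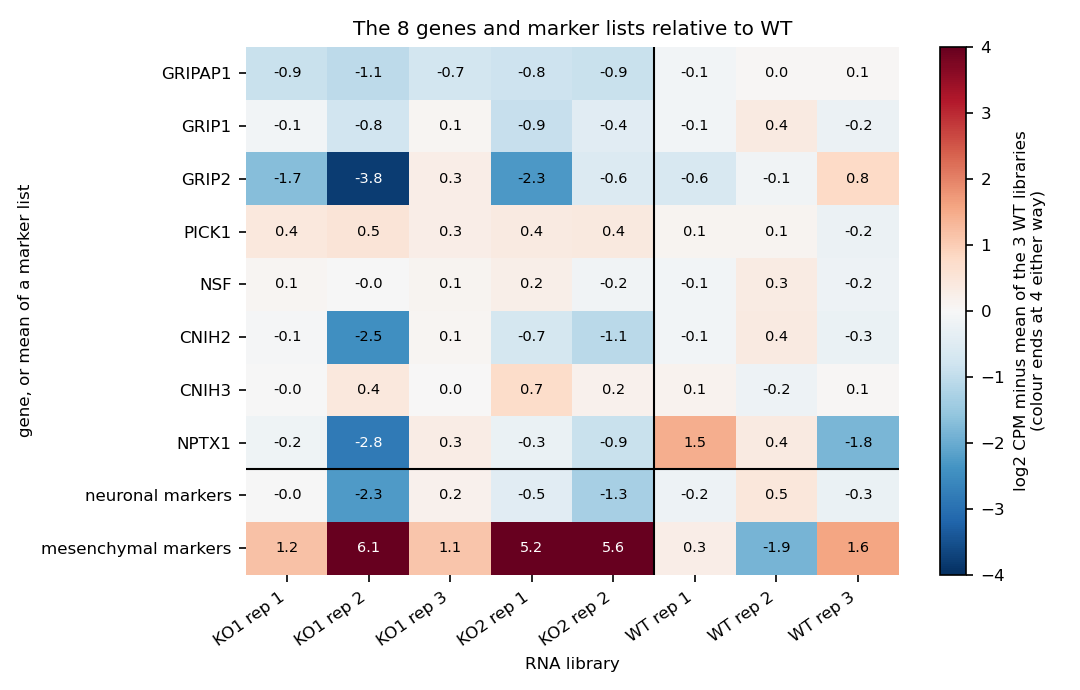
log2 CPM of each gene minus its mean over the 3 WT libraries (colour and number), with the mean log2 CPM of the neuronal and mesenchymal marker lists treated the same way below the line. Columns are RNA libraries, KO left of WT. GRIPAP1 is between -1.06 and -0.73 in all KO libraries, whereas GRIP2, CNIH2 and NPTX1 are lowest in KO1 replicate 2, where neuronal markers stand at -2.26 and mesenchymal markers at 6.12.

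GRIPAP1, GRIP2, CNIH2 and NPTX1 shared their lowest library, KO1 replicate 2, with the neuronal marker list. The KO range was at most 1.31-fold for GRIPAP1, PICK1 and NSF. It was 1.715-fold for CNIH3, 1.996-fold for GRIP1 and 5.88- to 16.8-fold for GRIP2, CNIH2 and NPTX1. The part of the neuronal and mesenchymal markers in the values of the 8 genes was not tested. Without the 3 high-collagen libraries the log2 fold change was -0.81 for GRIPAP1 (edgeR FDR 0.388) and 0.34 for PICK1 (edgeR FDR 0.648). With all libraries it was -0.88 and 0.39, and no KO2 library enters the former values.

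Line KO2 was compared with line KO1, a difference the choice of genes did not use. For GRIPAP1 the mean was 88.1 ± 3.40 CPM in KO2 (SD, n = 2) and 86.1 ± 9.81 CPM in KO1 (SD, n = 3), with a log2 fold change of 0.03 (SE 0.148, edgeR FDR 1.00). PICK1 had 31.3 ± 0.297 CPM in KO2 and 31.8 ± 2.50 CPM in KO1 (log2 fold change -0.02, SE 0.167). GRIP1 had 25.4 ± 5.93 CPM in KO2 and 34.5 ± 9.55 CPM in KO1 (log2 fold change -0.44, SE 0.307). GRIP2 had 29.8 ± 22.6 CPM in KO2 and 35.6 ± 40.2 CPM in KO1, and CNIH2 38.3 ± 7.29 and 51.7 ± 33.9 CPM. None of the 8 was called by edgeR or DESeq2, none had an unadjusted p under 0.05 by edgeR, and edgeR called 0 of 19440 genes (0%), with 2.24% at an unadjusted p under 0.05. DESeq2 called 9 of 22426 genes (0.0401%). Without KO1 replicate 2, edgeR called 958 genes, 0 of the 8 among them, and CNIH2 stood at -0.88 (FDR 0.0826) where all libraries gave -0.43. In that fit both KO2 libraries are high-collagen and the KO1 libraries left are not. Line and high-collagen state therefore cannot be told apart in it. With SEs up to 1.06 on the log2 scale (GRIP2), this comparison does not show that the lines are alike in the variable genes.

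**Figure D3:**
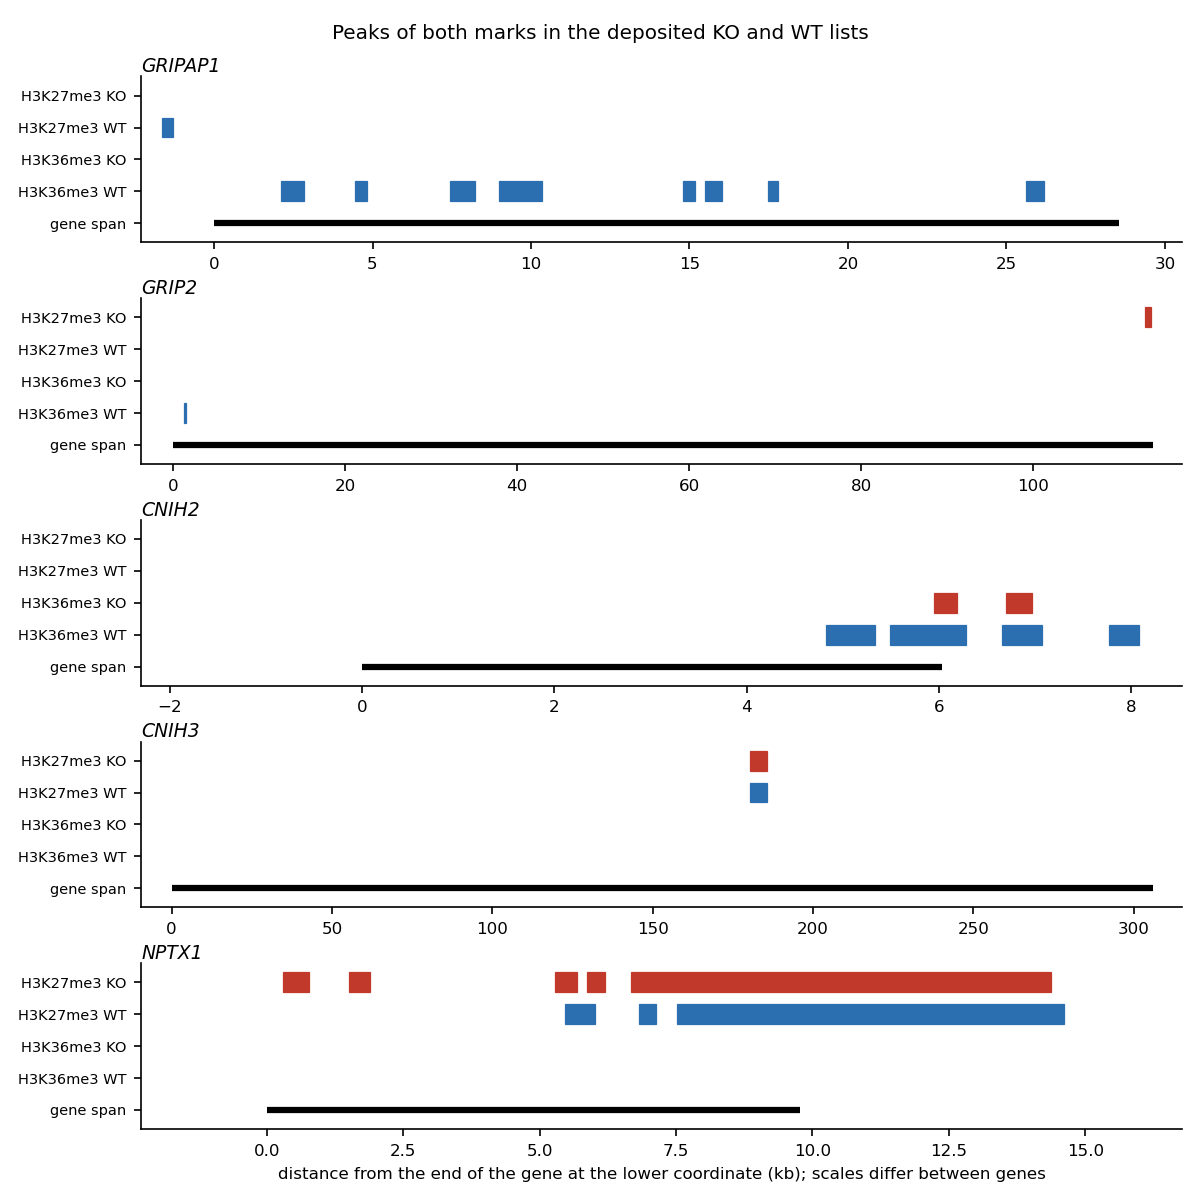
Peaks of H3K27me3 and H3K36me3 in the deposited KO (red) and WT (blue) lists at the 5 genes with most peaks, drawn to scale along the gene as distance in kb from its end at the lower coordinate. The black bar is the gene span. GRIPAP1 has 8 H3K36me3 peaks in the WT list and 0 in the KO list, and NPTX1 has a long H3K27me3 peak over its end at the higher coordinate in both lists.

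The WT list held H3K36me3 peaks along part of the body of GRIPAP1, and the KO list held none there. Peaks were assigned to a gene by at least 1 base of overlap with its span, or with 2 kb either side of its start site. GRIPAP1 (chromosome X, 48973723 to 49002264, minus strand) held 8 H3K36me3 peaks in its span in WT and 0 in KO. The 8 peaks were 308 to 1354 bp long, had 3.67- to 7.12-fold enrichment over the control in the authors' list, and covered 17.6% of the span. The strongest lay at 48989201 to 48989736 (7.12-fold, -log10 q of 12.5) and the longest at 48982729 to 48984082. The lists themselves also differed in size. The KO list held 8937 H3K36me3 peaks with a median length of 254 bp and the WT list 30144 with a median of 382 bp, although KO had 44.4 M tags and WT 22.5 M, and the fragment length was 200 bp in KO, which equals the preset extension in the file header, and 269 bp in WT. Of the 8 genes, 3 had H3K36me3 in WT alone, against 22.5% of all genes with a position, and of genes with an H3K36me3 peak in WT, 51.6% had none in KO. Of the 1135 genes with at least 8 such peaks in WT, a limit taken from GRIPAP1 itself, 213 (18.8%) had none in KO. With 1 list per genotype, the absence of KO peaks at GRIPAP1 has no replicate check. The part that the difference between the lists has in it was not tested.

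CNIH2 was the only one of the 8 genes with H3K36me3 in both lists, counted in the span. It had 1 peak reaching into its span in KO and 2 in WT, which covered 1.29% and 17.4% of it, and further peaks followed past its end. The KO peak overlapped the span by 78 bp with a -log10 q of 4.52, and it no longer counted with an overlap of at least 200 bp or a -log10 q of at least 5. GRIP2 and PICK1 each had 1 peak in WT (4.16- and 5.55-fold) and 0 in KO, and GRIP1, NSF, CNIH3 and NPTX1 had 0 in both. In all, 1 of the 8 genes had an H3K36me3 peak in its span in KO and 4 in WT, against 23.7% and 43.6% of all 15736 genes with a position. At start sites, 0 of the 8 had one in KO and 1 (GRIP2) in WT, against 3.26% and 9.51% of genes. The GRIP2 peak began 1268 bp inside its end at the lower coordinate. Without a strand at hand both ends of GRIP2 were counted as starts, so this peak may not lie at its start.

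H3K27me3 lay over NPTX1 and over the internal start of CNIH3 in both genotypes. For GRIP1, GRIP2 and NPTX1 no strand was at hand, and both ends of the gene were counted as starts. At NPTX1 a peak of 7695 bp in KO (80473505 to 80481199, 12.6-fold) and of 7094 bp in WT (80474353 to 80481446, 20.2-fold) ran across the end at the higher coordinate, and 6847 bp were shared, 89.0% of the KO peak and 96.5% of the WT peak. The gene held 5 H3K27me3 peaks in KO and 3 in WT, covering 48.1% and 31.9% of its span. NPTX1 RNA was measured at up to 36.6 CPM in KO and 81.1 CPM in WT, and the peak lists do not tell whether mark and RNA came from the same cells. At CNIH3 a peak of 4737 bp in KO (224614979 to 224619715, 11.1-fold) and of 4170 bp in WT (224615088 to 224619257, 15.7-fold) covered the internal start printed above, the KO peak holding all of the WT peak. The KO peak began 180339 bp past the end of the gene that holds the outer start, which had none in either list, and the gene's counts do not tell which start was used.

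GRIP2 had an H3K27me3 peak in KO alone, and GRIPAP1 had none in its span in either list. The GRIP2 peak lay at its end at the higher coordinate (14602174 to 14602869, 696 bp, 4.35-fold, -log10 q of 10.1). The KO list came from 37.7 M tags and the WT list from 22.5 M, and a peak missing from 1 list can lie under its threshold. The nearest H3K27me3 peak to GRIPAP1 was a 353 bp peak in WT between GRIPAP1 and its neighbour KCND1 (48972089 to 48972441, 4.10-fold), past the 3′ end of GRIPAP1. In all, 3 of the 8 genes had an H3K27me3 peak at a start site in KO and 2 in WT, against 16% and 15.4% of all genes. Both lists held it for 2 (CNIH3 and NPTX1), against 13.5%, and the KO list alone for 1, against 2.47%. In the span the counts were again 3 in KO and 2 in WT, against 16.8% and 16.4%. GRIP1, PICK1, NSF and CNIH2 had no H3K27me3 peak at a start or in the span in either list.

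Genes around GRIPAP1 on the X chromosome were split in direction. Within 250 kb of it lay 32 annotated genes, of which 18 were tested. Of these, 9 had a higher and 9 a lower level in KO, with a median log2 fold change of 0.0045, and without the 3 high-collagen libraries 8 and 10 with a median of -0.04. KCND1, a voltage-gated potassium channel 1879 bp from GRIPAP1, had 2.48, 6.06 and 2.32 CPM in KO1, 5.73 and 6.24 CPM in KO2, and 4.26, 4.05 and 5.47 CPM in WT, with a log2 fold change of -0.01. Its 3 highest KO values were in the high-collagen libraries, and without them the log2 fold change was -0.93 (SE 0.294, edgeR FDR 0.533), close in size to that of GRIPAP1 (-0.81). TFE3, a transcription factor of lysosomal genes on the other side, had 99.6 to 166.4 CPM in KO and 85.8 to 94.0 CPM in WT (log2 fold change 0.53, edgeR FDR 0.246), with 0.21 without the 3 libraries. Of the 18, 4 had all KO libraries above WT, against 6.29% of all genes, and 1, GPKOW, had all below, against 6.16% (16.4 to 18.1 CPM in KO and 19.7 to 20.9 CPM in WT). WDR45, a protein of autophagy, was the one neighbour with an adjusted p under 0.05 in the authors' deposited table (0.0053), and it was higher in KO (23.6 to 36.01 CPM) than in WT (14.9 to 17.9 CPM). Its log2 fold change was 0.86, and 0.52 without the 3 libraries. Of the 18, 3 had an H3K36me3 peak in their span in KO and 5 in WT, against 23.7% and 43.6% of all genes with a position. OTUD5, a deubiquitinase with 8 WT peaks like GRIPAP1, had 3 in KO, and TFE3 had 0 in KO and 4 in WT.

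**Figure D4:**
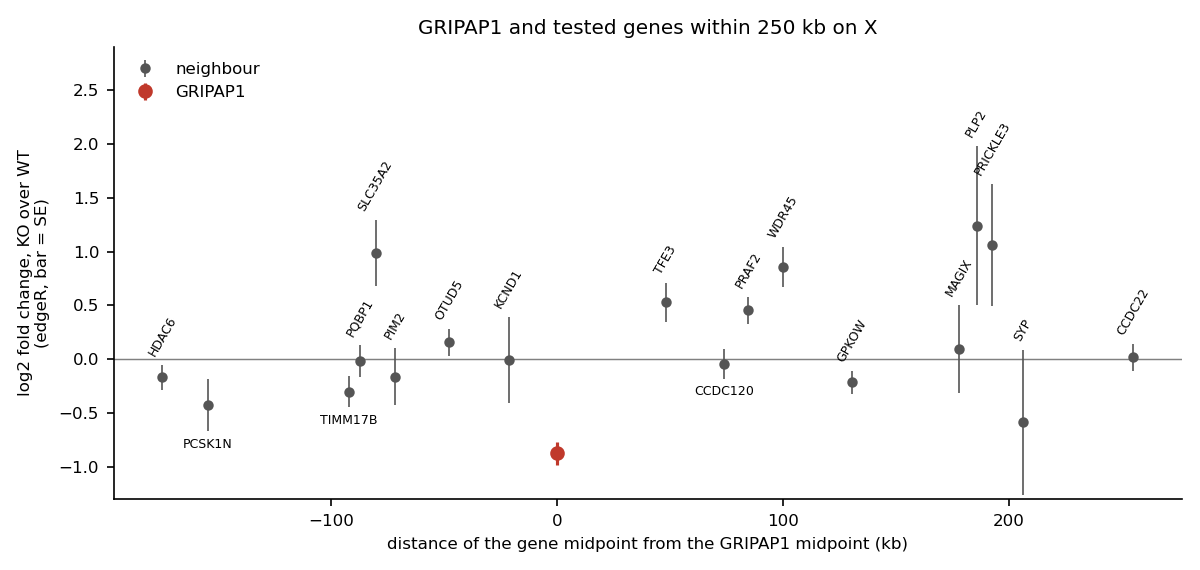
log2 fold change (KO over WT, edgeR, bars are SE) of GRIPAP1 (red) and the 18 tested genes within 250 kb of it (grey) by distance of gene midpoints in kb. GRIPAP1, at -0.88, is the lowest of the 19 with all libraries, and the neighbours scatter on both sides of 0. KCND1, drawn at -0.01, stood at -0.93 without the 3 high-collagen libraries.

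The other genes of the AMPA receptor pathway were described by 8 lists with 89 genes, of which 87 were tested (all but CACNG3 and SHISA8). edgeR called 0 of them, the authors' deposited table called 1 higher and 0 lower (5.23% and 1.24% over all genes tested), and 38 had a positive and 49 a negative log2 fold change, with a median of -0.11 (-0.01 over all genes). Without the 3 high-collagen libraries 45 were positive and 42 negative, with a median of 0.0085, and edgeR again called 0. In that fit 6 of the 87 had an unadjusted p under 0.05 by edgeR, against 1555 of all 18755 genes. KO and WT libraries did not overlap for 9 of the 87, against 12.5% of all genes, so the count was not above that of genes at large. The 4 with KO above were EHD1 and SNAP23 of the endosome and plasma membrane, the kinesin KIF5B and the liprin PPFIA1. The 5 with KO below were CACNG7, PRRT1, RAB11FIP3, the minus-end motor MYO6 and the liprin PPFIA3. Beyond CACNG7 and SNAP23, these were named after their values were seen. MYO6, a myosin that carries AMPA receptors into the endocytic path, had 92.7, 50.8 and 109.7 CPM in KO1, 56.4 and 62.03 CPM in KO2, and 147.2, 118.1 and 149.8 CPM in WT (log2 fold change -0.90, SE 0.265, edgeR FDR 0.243), and -0.45 without the 3 libraries.

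Receptor subunits and auxiliary subunits had negative medians with all libraries. Without the 3 high-collagen libraries the medians were 0.056 for AMPA receptor subunits, -0.034 for TARPs and 0.0045 for other auxiliary and assembly proteins. Of 4 AMPA receptor subunits, 3 had a negative log2 fold change (median -0.40). GRIA2, which encodes GluA2, had 59.5, 11.1 and 133.5 CPM in KO1, 31.2 and 28.0 CPM in KO2, and 90.3, 119.1 and 91.7 CPM in WT (log2 fold change -0.93, edgeR FDR 0.445), with its 3 lowest values in the high-collagen libraries and -0.051 without them. GRIA1 averaged 59.1 ± 34.0 CPM in KO and 77.9 ± 28.4 CPM in WT (SD, n = 5 and 3). Among TARPs, the auxiliary subunits that anchor AMPA receptors at the synapse, 3 of 5 were negative (median -0.31). CACNG7 had 62.2 to 108.8 CPM in KO and 112 to 136.5 CPM in WT (log2 fold change -0.58, edgeR FDR 0.244, and -0.31 without the 3 libraries), and CACNG4 averaged 174.2 ± 46.8 CPM in KO and 216.3 ± 55.6 CPM in WT. Other auxiliary and assembly proteins were negative in 8 of 11 (median -0.39), with OLFM1 at 69.6 ± 45.2 CPM in KO and 109.8 ± 38.2 CPM in WT and CPT1C at 78.0 ± 13.5 and 89.5 ± 6.74 CPM. Of the 4 other cornichons and pentraxins, 3 were positive (median 0.22, and -0.0081 without the 3 libraries). CNIH1, the widely expressed cornichon, averaged 79.7 ± 13.2 CPM in KO and 71.1 ± 5.60 CPM in WT. The pentraxin receptor NPTXR averaged 46.8 ± 7.17 and 66.5 ± 18.2 CPM. Log2 fold changes with all libraries were -0.40 (GRIA1), -0.31 (CACNG4), -0.66 (OLFM1), -0.20 (CPT1C), 0.16 (CNIH1) and -0.51 (NPTXR). Without the 3 libraries they were 0.19, 0.031, 0.016, 0.0045, -0.067 and -0.41 in that order.

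Endosomal recycling genes, which work beside GRIPAP1, were evenly split, 12 positive and 12 negative (median 0.01, and -0.019 without the 3 libraries). RAB11A, the GTPase of the recycling endosome, averaged 165.0 ± 13.1 CPM in KO and 154.3 ± 8.35 CPM in WT, and NSG2, a neuronal endosomal protein, 145.9 ± 103.1 and 256.5 ± 110.6 CPM. RAB4A, of the GTPase that GRIPAP1 binds, had 36.1 to 54.2 CPM in KO and 41.9 to 44.5 CPM in WT. Among 11 NSF partners and fusion genes (5 positive, 6 negative, median -0.04, and 0.0085 without the 3 libraries), SNAP23, a SNARE of the plasma membrane, was the single gene of all lists called in the authors' deposited table (adjusted p 0.0274), with a log2 fold change of 1.11 by edgeR (SE 0.309, FDR 0.243). It had 26.98, 64.8 and 28.3 CPM in KO1, 44.8 and 49.2 CPM in KO2, and 16.9, 20.2 and 22.3 CPM in WT. Its 3 highest values were in the high-collagen libraries, without them its log2 fold change was 0.48 (FDR 0.559), and the part of other cell types was not tested. GABARAP averaged 207.5 ± 10.8 CPM in KO and 195.2 ± 14.1 CPM in WT and the complexin CPLX2 72.1 ± 48.7 and 137.2 ± 51.5 CPM. Of 22 PDZ scaffolds and motors, 9 were positive and 13 negative (median -0.26, and 0.0079 without the 3 libraries), among them the kinesins KIF1A (493.2 ± 237.8 CPM in KO, 752.0 ± 184.5 CPM in WT) and KIF5C (395.6 ± 305.3 and 636.1 ± 112.8 CPM). The 6 JNK pathway kinases, a pathway for which GRIPAP1 has been described as a scaffold, split 3 and 3 (median -0.01, and 0.072 without the 3 libraries). MAPK8 stood at 91.6 ± 28.1 CPM in KO and 123.4 ± 21.0 CPM in WT, and MAP2K4 at 61.95 ± 6.50 and 59.3 ± 4.78 CPM. Log2 fold changes with all libraries were 0.096 (RAB11A), -0.81 (NSG2), 0.088 (GABARAP), -0.93 (CPLX2), -0.61 (KIF1A), -0.685 (KIF5C), -0.43 (MAPK8) and 0.064 (MAP2K4). Without the 3 libraries they were 0.0091, -0.11, 0.062, -0.40, -0.076, 0.17, -0.030 and 0.13 in that order.

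**Figure D5:**
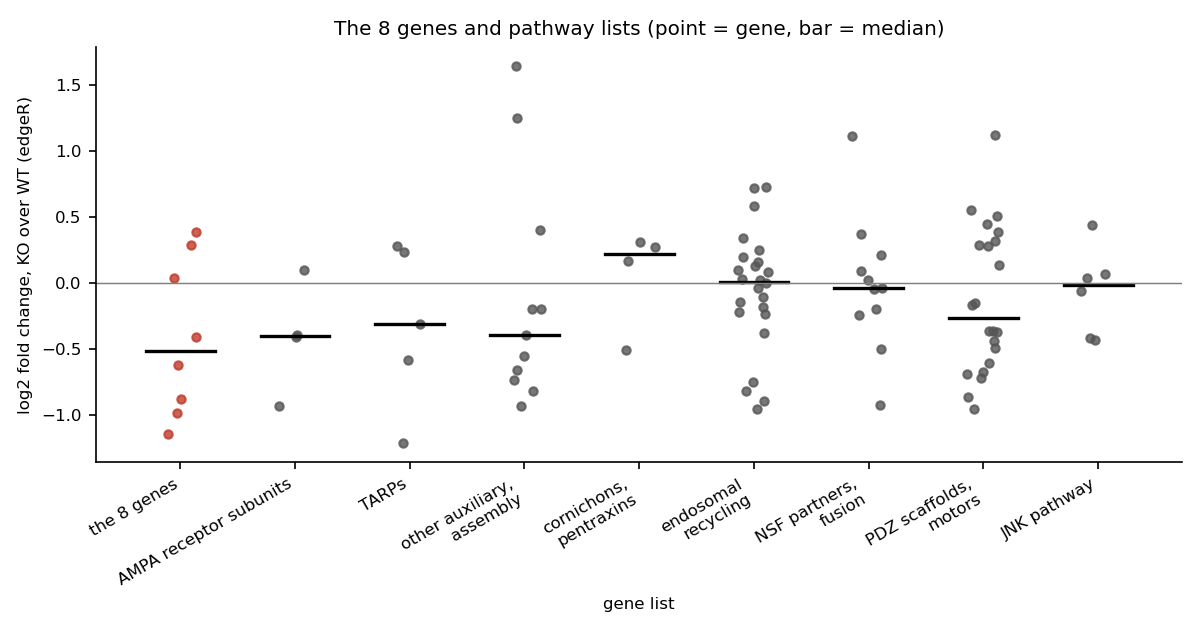
log2 fold change (KO over WT, edgeR) of the 8 genes (red) and of the tested genes of the 8 pathway lists (grey), each point a gene and each bar the median of its list. Medians run from -0.52 for the 8 genes to 0.22 for the other cornichons and pentraxins, and each list has genes on both sides of 0. Without the 3 high-collagen libraries the medians of the 8 pathway lists lay between -0.034 and 0.072. In that fit the 8 genes stood at -0.81 (GRIPAP1), -0.52 (GRIP2), -0.43 (NPTX1), -0.04 (GRIP1), -0.015 (CNIH3), -0.0033 (CNIH2), 0.07 (NSF) and 0.34 (PICK1).

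H3K27me3 at start sites was frequent in the auxiliary subunit lists. Among TARPs 4 of 5 genes had it, the same 4 in KO and WT (CACNG2, CACNG5, CACNG7 and CACNG8), and among other auxiliary and assembly proteins 8 of 11 had it in both. NPTX2 and NPTXR had it in both lists as well. In the other lists it was found in 3 of 23 endosomal genes in KO and 1 in WT, 1 of 11 fusion genes in each, 7 of 22 scaffolds and motors in KO and 4 in WT, 0 of 6 JNK pathway genes in KO and 1 in WT, and 2 of 4 AMPA receptor subunits in KO (GRIA2 and GRIA4) and 1 in WT (GRIA2). Over all lists it was 27 of 86 genes in KO and 22 in WT, beside the 16% and 15.4% of all genes given above. These shares describe lists written with earlier results known, and no test was made of them.

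Among the genes whose RNA pattern was most like that of GRIPAP1, by Pearson correlation of log2 CPM over the 8 libraries among 11556 genes with a mean of at least 3 log2 CPM, were SLC25A1 (r = 0.968), SEMA7A (0.966), MPLKIP (0.960) and ASIC1 (0.954). Each of these 4 had every KO library below every WT library. GRIPAP1 itself was chosen for its difference between KO and WT, so a high correlation with it favours such genes. The libraries are shared by all genes, and no test was made. Without the 3 high-collagen libraries their log2 fold changes were -0.50, -0.65, -0.16 and -0.83 in that order. SLC25A1, the mitochondrial citrate carrier, had 67.6, 64.03 and 72.1 CPM in KO1, 72.2 and 72.5 CPM in KO2, and 86.3, 102.4 and 108.3 CPM in WT. ASIC1, an acid-sensing channel, had 24.0 to 36.5 CPM in KO and 53.1 to 62.9 CPM in WT.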

How the data were processed

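RNA (8 libraries) and ChIP (9 samples) of day 40 neurons were measured. The submitters' processing notes name Salmon 1.1.0, DESeq2 1.26.0, Bowtie2 2.4.1, MACS2 2.2.7.1 and GRCh38. The table deposited for RNA gives an estimated count for each gene symbol and library, with no normalization. A second table deposited by the authors compares KO with WT and gives log2 fold changes with SE, a Wald score, and the p-value with its adjusted form. Peak calling compared 1 treatment with 1 control file at a q of 0.01, per the file headers, and the deposited lists give for every peak the pileup signal, the -log10 q and the fold, a ratio to the control. Both KO lines point to the same KO lists, and it is not stated whether their reads were pooled.

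Counts were rounded and tested with edgeR 4.0.16 (R 4.3.3): filterByExpr, TMM, quasi-likelihood F-test, Benjamini-Hochberg adjustment, threshold 0.05. KO against WT used 2 groups and KO2 against KO1 used 3. SEs come from the fold change and its F statistic, and log2 CPM used a prior count of 2. DESeq2 1.42.0 was an alternative. Both were run on simulated data with 200 genes changed and each gene drawn independently. Those data lack the mesenchymal RNA shared by the high-collagen libraries, so they do not test why the tools differ here. Named were the 8 genes, the 2 highest means of each pathway list and any called member, the nearest or called neighbours, and the 5 genes most like GRIPAP1, of which 1 is not reported here. Genes and lists were chosen with earlier results of these data known. Start sites came from RefSeq (GRCh38.p14) where given, otherwise both gene ends, and 2878 tested genes without a position were left out of peak counts.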

Additional observations from a re-analysis of the deposited data

How the results depend on the processing

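Between KO and WT, edgeR called 0 genes under each setting run, DESeq2 called 1243, and with DESeq2 262 were called without the 3 high-collagen libraries and 452 to 2870 with each library left out in turn (1762, 776 and 2870 without KO1 replicates 1, 2 and 3, 749 and 590 without KO2 replicates 1 and 2, and 590, 452 and 539 without WT replicates 1, 2 and 3). Between KO2 and KO1 edgeR called 0 genes and DESeq2 called 9. With each library left out edgeR called 0 to 958 (958 without KO1 replicate 2, 0 of the 8 genes among them). Without KO1 replicate 2 only the KO2 libraries were high-collagen, so line and high-collagen state cannot be told apart there. GRIPAP1 kept its direction in 24 alternatives (log2 fold change -0.93 to -0.81), at an edgeR FDR of 0.0641 to 0.490, and passed in all 10 DESeq2 fits. These fits reuse the libraries and the contrast on which GRIPAP1 was chosen, so they describe its difference and do not test it. PICK1 kept its direction too (0.27 to 0.46) and passed in none. CNIH3 turned to -0.015 (edgeR) and -0.018 (DESeq2) without the 3 libraries. NSF ranged from -0.074 to 0.21 with 1 library left out, and by DESeq2 it was -0.0027 without KO2 replicate 1, -0.027 without WT replicate 1 and -0.065 without WT replicate 3. Of 192 values for KO against WT 8 changed sign, and of 104 for KO2 against KO1 13 did, none of them past a threshold. In KO2 against KO1 the leave-out ranges were -0.031 to 0.12 (GRIPAP1), -1.39 to 1.21 (GRIP2), -0.084 to 0.045 (PICK1), -0.18 to 0.16 (NSF) and -0.62 to 0.41 (NPTX1), and NSF was -0.016 with no filter on low counts. Same-numbered libraries deviated with r of 0.0692, -0.321 and -0.221 for KO1 and WT, 0.0499 and -0.107 for KO2 and WT, and 0.267 and 0.164 for KO2 and KO1, and not every library correlated best with its own number, so the numbers were not taken to pair them. With the replicate block edgeR called 0 genes in both comparisons, GRIPAP1 stood at -0.86 (FDR 0.386) between KO and WT, and between KO2 and KO1 the sign turned for GRIP2 (0.81), NSF (-0.039) and NPTX1 (0.027). The genes with H3K36me3 in the span in KO numbered 0 with a -log10 q of at least 5 and 0 with an overlap of at least 200 bp. Those with H3K36me3 at the start in WT numbered 0 with the stricter q and 3 within 5 kb. The cause of these changes was not tested. The 46 to 89.0 estimated counts of CNIH3 per library limit its precision, and a lone KO2 library is assumed to vary like the other groups.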
